A study of Homo sapiens with 12 samples.

Results

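Promoter regions of protein-coding genes were examined in the open chromatin of KO-52 cells. Peaks of 6 ATAC-seq lists on chromosomes 1 to 22 and X were merged wherever they overlapped by at least 1 bp, which gave 355051 regions. A merged region was kept as a coding promoter region if it touched the 1000 bp on either side of an annotated transcription start of a protein-coding gene in GENCODE release 44 (hg38), and 40107 regions did so. These regions covered the starts of 16964 of the 19970 coding genes, and the other 3006 genes had no peak near any start in any list. The choice among merged regions used positions only. A merged region exists only where a peak was called in at least 1 list. Regions held in some lists therefore entered through the lists where their signal passed the threshold.

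In ATAC-seq, accessible DNA is cut and tagged by the Tn5 transposase. KO-52 is a human acute myeloid leukaemia (AML) cell line in which both CEBPA alleles are mutated, and every group here carries those mutations. The cells were transduced with an empty vector (EV), with p42 (the full-length C/EBPα isoform) or with p30 (the shorter isoform that mutant CEBPA in AML still makes), and each line received DMSO or 2 µg/mL tunicamycin for 8 h. Each of the 6 conditions had 2 libraries of 50000 nuclei each, 12 libraries in all. The authors called the peaks used here on the pooled replicates of a condition, so there was 1 list per condition, no spread between replicates could be measured, and no difference between conditions was tested. All of these values describe a single cell line and its 3 transduced derivatives.

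A promoter is the stretch around a transcription start where general factors and RNA polymerase II assemble, and in active genes it is kept free of nucleosomes. Many housekeeping genes start within CpG islands, stretches of GC-rich DNA that are mostly unmethylated and accessible in nearly every cell type, whereas many tissue-restricted genes start in CpG-poor DNA and depend on lineage factors. C/EBPα is such a factor in granulocytes and monocytes, p30 lacks N-terminal transactivation sequence that p42 has, and tunicamycin blocks N-glycosylation in the endoplasmic reticulum, which sets off the unfolded protein response and translation of ATF4.

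Sequences around the summits of promoter regions that were open in some lists and not in others are given below as the plus strand of hg38, 5′ to 3′. Lower case is the genomic sequence, and capitals mark exact matches on either strand to the letters bound by C/EBP (TTGCNNAA), AP-1 (TGANTCA), CRE-binding factors (TGACGTCA) or GATA factors (AGATAAG). The MARK3 region, intronic, was among the 4 leading regions held by both p42 lists only, and had no match to these letters within 50 bp of the summit.
MARK3, chr14:103492342-103492442: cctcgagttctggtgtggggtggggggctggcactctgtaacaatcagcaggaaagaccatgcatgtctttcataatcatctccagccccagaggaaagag

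The whole promoter of 92 genes was seen only with p42. Of the 90 searched, 10 (11.1%) had a C/EBP match within 50 bp of the summit, against 3.62% of coding promoter regions searched in the same way. Of the first 4 of these by q-value, 3 are shown. They were chosen after their values were seen, and they show how the match sits beside the summit at position 51 of each sequence. SLPI was intergenic at this place, CCL26 was intronic, and the CLEC4G window lay in an intron of the overlapping coding gene ENSG00000288669. SLPI and CLEC4G had their match at position 71, and CCL26 had a C/EBP match at position 48 and a GATA match at position 81.
SLPI, chr20:45254878-45254978: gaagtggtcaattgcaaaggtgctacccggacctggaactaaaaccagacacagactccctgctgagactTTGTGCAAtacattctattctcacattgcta
CCL26, chr7:75772886-75772986: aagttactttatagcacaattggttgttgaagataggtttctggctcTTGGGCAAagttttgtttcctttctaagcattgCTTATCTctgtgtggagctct
CLEC4G, chr19:7734341-7734441: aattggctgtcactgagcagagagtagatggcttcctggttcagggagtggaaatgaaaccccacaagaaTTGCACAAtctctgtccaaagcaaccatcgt

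The leading regions of both p30 lists only and both EV lists only are shown for comparison. The ST3GAL5 region, intronic, held a CRE match at position 60, and the INPP4A region, in an exon without a coding or untranslated annotation, held an AP-1 match at position 48.
ZNF823, chr19:11738066-11738166: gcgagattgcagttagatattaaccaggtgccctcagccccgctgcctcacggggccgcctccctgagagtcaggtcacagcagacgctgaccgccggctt
ST3GAL5, chr2:85862600-85862700: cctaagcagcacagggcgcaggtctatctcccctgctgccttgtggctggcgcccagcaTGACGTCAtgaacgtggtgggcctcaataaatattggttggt
C17orf75 and ZNF207, chr17:32349629-32349729: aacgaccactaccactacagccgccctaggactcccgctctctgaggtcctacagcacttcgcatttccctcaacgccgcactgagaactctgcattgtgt
INPP4A, chr2:98519275-98519375: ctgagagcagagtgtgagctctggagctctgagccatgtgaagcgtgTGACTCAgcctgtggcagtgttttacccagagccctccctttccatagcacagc
TRIP11, chr14:91998802-91998902: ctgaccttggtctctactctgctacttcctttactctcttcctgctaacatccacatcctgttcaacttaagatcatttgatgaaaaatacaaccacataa

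For tunicamycin, 30 bases around the match to the letters bound by ATF4 with a C/EBP partner (TGATGCAA, here in capitals) are shown, because these places lie in annotated untranslated exons. NFE2L1 was the leading region held by all 3 tunicamycin lists only, with the middle of its match 7 bp from the summit. WARS1 and SHMT2 were open in all lists with more tags in tunicamycin, and their matches lay at -8 and 46 bp from the summit. These last sequences were chosen after their values were seen.
NFE2L1, chr17:48055919-48055948: gtaccacaggcTGATGCAAgcctggccact
WARS1, chr14:100375595-100375624: ttagctggtcaTTGCATCAgccacccctca
SHMT2, chr12:57230159-57230188: agccctgcagaTGATGCAAccgagcttcac

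Most coding promoters were open in every condition. A peak in all 6 lists was found for 22035 coding promoter regions, which is 54.9% (95% Wilson interval 54.5 to 55.4) against 32.2% of all merged regions and 29.3% of the regions outside coding promoters. At the level of genes, 15290 (76.6%) had a promoter region in all 6 lists, 1674 (8.38%) in 1 to 5 lists and 3006 (15.1%) in none. Between 15833 genes (79.3%, p30 in tunicamycin) and 16447 genes (82.4%, p42 in DMSO) were open in a single list. The intervals cover the counting of regions and genes, and neither library nor biological variation.

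The strength of a region was read as fragment tags under the summit, solved from the deposited fold and p-value of each peak. The median summit of coding promoter regions held in all 6 lists had 26 tags (EV, DMSO) to 31 tags (p42, DMSO), and the median of other regions held in all 6 lists had 14 to 18. Estimated depth was 22250000 tags (EV, DMSO) to 29980000 tags (p42, DMSO). The shares were also compared within bins of the highest percentile that a region reached in any list. From the 40th to the 60th percentile, 27.3% (26.2 to 28.4) of 6263 promoter regions were held in all 6 lists against 15.4% (15.1 to 15.7) of 61808 other regions. From the 60th to the 80th percentile the shares were 80.6% and 66.8%, and above it 99.6% and 97.9%.

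The strongest promoters were chosen for a high value in every list, so their levels are a description. GTF2IRD2B, a gene of the general transcription factor II-I family, had 58, 63, 65, 63, 65 and 61 tags in EV, p30 and p42 cells, in DMSO and then tunicamycin for each. This gene has near-identical copies nearby, so its reads may be shared with them. The promoter between ACAD8, a mitochondrial acyl-CoA dehydrogenase, and THYN1 had 60, 62, 65, 63, 62 and 62 tags in the same order. MTOR, the growth-regulating kinase, had 56, 57, 64, 61, 64 and 55. EAPP, NUP58, VPS50, MRPS31 and CCDC146 completed the leading 8, and over all 8 regions the values ran from 50 to 69 tags.

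Regions held in all lists sat at the transcription start, and regions held in fewer lists sat beside it. The median region in all 6 lists was 660 bp wide with its summit 111 bp from the nearest coding start, and 47.6% of summits lay within 100 bp of it. Regions in 1 to 5 lists had a median width of 112 bp, a median distance of 428 bp, and 18.5% of summits within 100 bp. Of these 18072 regions, 83.6% belonged to a gene that also had a region in all 6 lists. Genes had up to 27 promoter regions (SEPTIN9, a cytoskeletal septin with 46 annotated start positions), and 11303 genes had 2 or more.

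**Figure D1:**
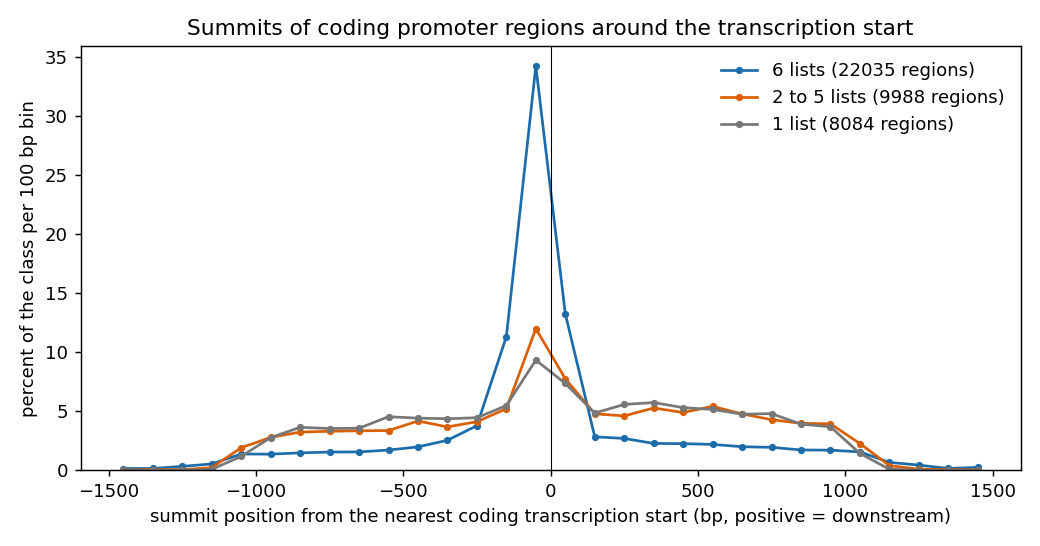
Summit position in bp from the nearest coding transcription start (negative is upstream) for coding promoter regions in 6 lists (blue), 2 to 5 lists (orange) and 1 list (grey), as percent of each class per 100 bp bin. Regions in 6 lists peak just upstream of the start, where 47.6% lie within 100 bp on either side, and the other classes spread over the whole window.

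Base composition differed between open and unseen promoters. Over 250 bp before to 50 bp after the canonical start, genes open in all 6 lists had a median GC content of 66.0% and a median observed-over-expected CpG ratio of 0.83. Genes open in 1 to 5 lists had 58.0% and 0.37, and genes without a peak had 50.3% and 0.26. The median number of distinct annotated starts also differed, with 7, 3 and 2 in the same order. A gene counted as open if any of its starts had a region, and the part of start number was not tested. By a GC content above 50% and a ratio above 0.6, 92.0% (91.5 to 92.4) of 13054 CpG-rich promoters were open in all 6 lists and 3.79% in none. Of the other 6916 promoters, 47.5% (46.3 to 48.7) were open in all 6 lists and 36.3% in none. The TATA letters TATAAA between 40 and 15 bp before the start were found in 2.48% of genes open in all lists, 7.05% of those in 1 to 5 lists and 9.68% of those in none. Genes that share a promoter head to head with another coding gene, with starts within 1000 bp, were open in all 6 lists in 96.2% (95.3 to 96.8) of 2532 cases, against 73.7% of the rest.

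Letters of the general promoter factors followed the same division. Within 100 bp of the summit, the SP1 letters GGGCGG were found in 47.5% of promoter regions in all 6 lists and 19.8% of those in 1 to 5 lists, against 35.0% of all coding promoter regions. The ETS letters CCGGAAG were found in 9.73% and 1.60%, against 6.07% of all. The NRF1 letters GCGCATGC were in 2.35% and 0.371%, against 1.46% of all, and the YY1 letters AAGATGGC in 2.34% and 0.675%, against 1.59% of all. The CRE letters were in 1.43% and 0.282%, against 0.913% of all, and the UPR element letters TGACGTGG in 0.508% and 0.227%, against 0.381% of all. Some letters went the other way, with C/EBP in 5.89% and 9.85% against 7.67% of all, and AP-1 in 6.33% and 8.42% against 7.27% of all. The regions also differed in GC content around the summit, with a median of 63.7% in all 6 lists and 53.2% in 1 to 5 lists, and the part of base composition in these shares was not tested.

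Which genes were open or unseen followed known gene classes. All 48 complex I genes, 82 of 84 ribosomal protein genes, 77 of 78 mitochondrial ribosomal protein genes, 48 of 50 proteasome genes and 34 of 35 RNA polymerase subunit genes were open in all 6 lists, against 76.6% of all coding genes. Their exceptions included RPL3L, a muscle form of a ribosomal protein, and PSMB11 and PSMA8, the thymus and testis forms of proteasome subunits, each without a peak. MRPL23, the exception among the mitochondrial ribosomal protein genes, had no peak either. Zinc finger genes of the ZNF series were open in all lists in 480 of 515 cases. Among solute carriers the number was 278 of 373, among interleukins 29 of 50, among CC and CXC chemokines 18 of 41 and among HOX genes 17 of 39. No peak was found at 345 of 416 olfactory receptor genes, 23 of 27 taste receptor genes, 66 of 94 keratin-associated protein genes, 31 of 40 beta-defensin genes and 29 of 35 MAGE genes, against 15.1% of all coding genes. These families are used in sensory, hair, epithelial or germ cells.

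Some unseen promoters lay in blocks. On 33 stretches, at least 8 neighbouring coding genes in a row had no peak in any list, and these held 411 (13.7%) of the 3006 genes without a peak. The longest held 32 genes on chromosome 8, from DEFB4B to FAM90A24P, and the next 26 genes on chromosome 1, from PRAMEF12 to PRAMEF20. Blocks of olfactory receptors on chromosome 11 held 17, 15 and 14 genes, and a block of keratin-associated proteins on chromosome 21 ended in KRTAP19-2 and held 15. By chromosome, the share of genes without a peak was highest on X (35.2%), 21 (25.0%) and 11 (22.6%) and lowest on 13 (7.74%). Several of these families consist of near-identical copies, at which reads may not map uniquely, and the absence of a peak there is no sign that the promoter is closed.

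Open promoters were compared with markers of cell types. All 14 progenitor and myeloid markers, among them SPI1, RUNX1, GFI1, CD34, CD33, CSF3R and MPO, had a promoter region in all 6 lists. The 4 erythroid markers, among them HBB, HBA1 and KLF1, had none in any list, and HBA1 has a near-identical copy. All 4 neuronal markers, 3 of 4 B cell markers and 2 of 4 T cell markers were open in all 6 lists as well, so an open promoter by itself did not separate cell types. CEBPA had a single promoter region with 39 to 45 tags in all lists, which gives no check of the transgene.

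The comparison of p42 with p30 asks at which promoters the isoforms differ in cells with mutant CEBPA. In DMSO, 6018 coding promoter regions had a peak with p42 and none with p30, a share with a 95% interval of 14.7 to 15.4% against 25.0% of all regions, and 3316 had the reverse, 8.27% against 11.8%. In tunicamycin the counts were 4543 (11.3% against 17.5%) and 3014 (7.51% against 10.1%). In DMSO the promoter of 591 genes (2.96%) was seen with p42 alone of the pair, and of 258 genes (1.29%) with p30 alone. The p42 list in DMSO had 254239 peaks and the p30 list 207679, and list size moved with these counts.

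Patterns held in both treatments were counted next. Both p42 lists, and no other list, held 1016 coding promoter regions (2.53%, 2.38 to 2.69), against 4.58% of all regions. The same was true of both p30 lists for 194 regions (0.484% against 0.617%) and of both EV lists for 164 regions (0.409% against 0.559%). Regions missing only from both p42 lists numbered 208 (0.519% against 0.801%), from both p30 lists 158 (0.394% against 0.462%) and from both EV lists 180 (0.449% against 0.626%). In each of these 6 patterns coding promoters had a smaller share than regions as a whole. Coding promoter regions were also held in all 6 lists more often, 54.9% against 32.2%, which leaves less for any other pattern. The smaller shares are therefore no sign that promoters differ less by line among regions held in fewer lists. When every list was cut to equal size, both p42 lists only held 623 regions, and 420 were missing from both p42 lists only. Since these are bulk samples, fewer cells with an open promoter and less signal per cell cannot be told apart.

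The C/EBP letters were more frequent in the promoter regions held by both p42 lists only. They lay within 100 bp of the summit in 256 of the 1016 regions of both p42 lists only, which is 25.2% (22.6 to 28.0), against 7.67% of all coding promoter regions. They were found in 6.70% (3.96 to 11.1) of the regions of both p30 lists only and in 4.27% (2.08 to 8.55) of those of both EV lists only. The composite C/EBP:AP-1 letters TGTTGCAA were found in 3.35% of the p42 regions against 0.656% of all coding promoter regions, and the ATF4 letters in 3.15% against 0.663%. These 3 sets of letters share a GCAA core but differ in the letters before it, so matches on the same core exclude each other. Overlapping matches were found in 1 of the p42 regions, for C/EBP with C/EBP:AP-1. This count is largely set by the letters chosen and does not show that the 3 shares are separate. Outside coding promoters the share of C/EBP letters in regions of both p42 lists only was 29.5%. It was 12.2% in regions outside coding promoters held in all 6 lists, and 13.1% over all merged regions. The median GC content around the summit was 48.8% in the p42 promoter regions and 53.2% in all promoter regions of 1 to 5 lists, and its part was not tested.

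The AP-1 letters were more frequent in the opposite set. They were found in 19.2% (14.5 to 25.1) of the promoter regions missing only from both p42 lists and in 17.1% (12.1 to 23.6) of those of both EV lists only, against 7.27% of all coding promoter regions. In regions of both p42 lists only the share was 6.99% (5.58 to 8.72). Outside coding promoters the share was 30.3% in regions missing only from both p42 lists and 23.1% in those of both EV lists only. Over all merged regions it was 12.9%. AP-1 is the family of FOS and JUN dimers that answers growth factor and stress signals.

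**Figure D2:**
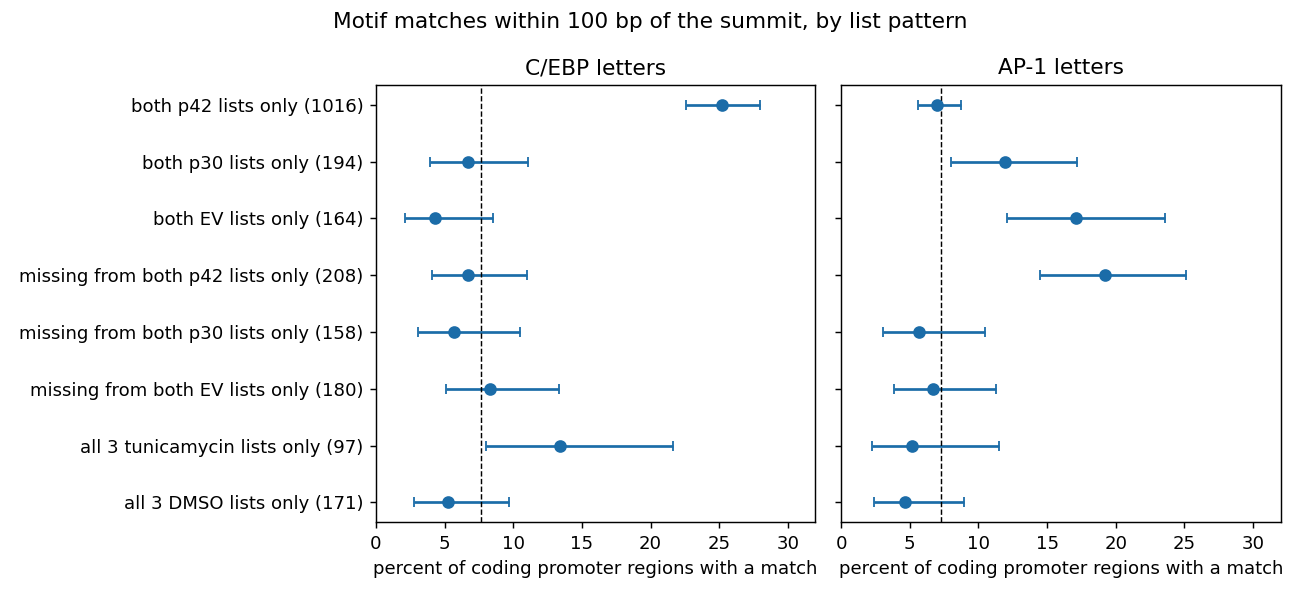
Percent of coding promoter regions with a match to the C/EBP letters (left) or AP-1 letters (right) within 100 bp of the summit, by the lists that hold the region. Points are shares, bars are 95% Wilson intervals, numbers in brackets are regions and the dashed line is the share in all coding promoter regions. The p42 regions stand at 25.2% for C/EBP, and the regions missing from p42 at 19.2% for AP-1.

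By the smallest q-value over both lists, the leading regions of both p42 lists only belonged to WDFY1, MTBP, MAST2, MARK3, HAL, SAAL1, HCAR2 and MPV17. WDFY1, an endosomal adaptor of Toll-like receptor signalling, had 21 tags with p42 in DMSO and 19 in tunicamycin, in a region 410 bp inside the gene. HAL, which starts histidine breakdown, had 21 and 22 tags in a region 8 bp from its start. HCAR2, the niacin and β-hydroxybutyrate receptor of neutrophils and macrophages, had 17 and 14 tags in a region 11 bp from its start. HAL and HCAR2 were the members of this group whose gene had no region in all 6 lists. The other 6 regions were side peaks, from -342 bp (MTBP, an MDM2-binding protein) to 1072 bp (SAAL1), of promoters open in all lists.

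A whole promoter, with no region at any start in another list, was seen in both p42 lists only for 92 genes, in both p30 lists only for 19 and in both EV lists only for 15. Of the 92, 20.7% were CpG-rich, against 15.8% and 33.3% of the 19 and 15 genes, 33.0% of genes open in 1 to 5 lists and 65.4% of all coding genes. HCAR2 led them, followed by FAM236C (15 and 13 tags), SLPI (14 and 11), OR10K2 (14 and 10), SCGB2A1 (12 and 10), HCAR3 (17 and 9), CLEC6A (10 and 10) and SCNN1B (9 and 10). SLPI encodes a secreted inhibitor of neutrophil elastase, and CLEC6A encodes dectin-2, a receptor for fungal mannans on myeloid cells. HCAR3 is a neighbouring paralog of HCAR2, and the 300 bases around their starts had 64.3% of positions identical without gaps. Whether reads were shared between the 2 genes was not tested. FAM236C, OR10K2, SCGB2A1 and SCNN1B are not known as myeloid genes. Other members, picked after their values were seen, were ARG1, PGLYRP1, DEFA4, LILRB4 and CEACAM4 of granulocytes and monocytes, CXCL6, a chemokine for neutrophils, and ALB, AGXT and UROC1 of hepatocytes.

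With p30 the leading promoter region was that of ZNF823 (16 tags in DMSO and 16 in tunicamycin), followed by the promoter shared by APH1A, a γ-secretase subunit, and C1orf54 (16 and 14). PPARGC1A (8 and 9 tags) and PPARG (13 and 8), a coactivator and a nuclear receptor of lipid metabolism, and HOXB8 (13 and 12), a homeobox gene of myeloid progenitors, were among them. All 8 leading p30 regions were at genes that also had a region in all 6 lists. Among the 19 genes with their whole promoter in both p30 lists only, TAAR5, an amine receptor, led with 9 and 7 tags at 69 bp.

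Regions of both EV lists only were led by the promoter near C17orf75 and ZNF207 (13 and 14 tags), INPP4A, a phosphoinositide phosphatase (9 and 11), and TRIP11, a Golgi protein (11 and 9). LRP1, the endocytic receptor for lipoproteins and proteases, led the regions missing only from p42 cells, with 10, 12, 14 and 9 tags in EV and p30 cells at -191 bp. PRKAB1, a subunit of AMP-activated kinase, followed with 14, 10, 18 and 9 tags at -70 bp. NXF1, the mRNA export receptor, led those missing only from p30 cells, with 14, 17, 27 and 18 tags in EV and p42 cells. LRRC57 led those missing only from EV cells, with 15, 15, 18 and 20 tags in p30 and p42 cells. Of the regions named in this paragraph, all but that of LRP1 were at a gene that also had a region in all 6 lists. The 8 leading regions each of p30 and EV cells had 7 to 20 tags, and the fewest tags of any peak were 4.

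Among promoter regions open in all 6 lists, few levels differed 2-fold between the lines. Summit tags were scaled by factors of 0.926 to 1.096 so that the median log2 ratio of a promoter's tags to its own mean over the lists was equal in all lists. Tags in p42 cells were at least 2-fold above both other lines in both treatments in 4 of 22035 regions (0.0182%), against 0.161% of all regions in 6 lists, and at least 2-fold below in 9 (0.0408%), against 0.211%. At a fold of 1.5 the numbers were 114 and 114, and scaling by depth gave 15 regions 2-fold below. For p30 there was no such coding promoter in either direction, against 0.000874% and 0.00175% of all regions. KIAA0930 had 22 and 24 tags with p42 and 5 to 10 in the other lists, POMK 26 and 18 against 7 to 8 and GTDC1 23 and 17 against 5 to 9. The p42 values of these regions stood above every value of the other lines. Their summits lay 757 bp (KIAA0930), 153 bp (POMK) and -796 bp (GTDC1) from the nearest coding start. SQSTM1, the autophagy receptor p62, came close with 32 and 32 tags against 12 to 15.

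Regions lower with p42 were led by TTC17 (8 and 10 tags, against 27 to 31 in EV and p30 cells) and ANO2 (7 and 5, against 13 to 19). PTPRF, a receptor phosphatase, had 13 and 11 tags against 27 to 32, and LCK, the Src-family kinase of T cells, had 8 and 8 against 15 to 20. JCHAIN, the joining chain of secreted antibodies, had 7 and 9 against 14 to 18. The remaining named members were PCDH9, SWAP70 and NDRG4, and in all 8 the p42 values lay below every value of the other lines. The summits of ANO2 and NDRG4 lay at -1182 and -808 bp from the nearest coding start, that of TTC17 at -266 bp and the others closer. Nearest to the limit for p30 were BLTP1, higher by a smallest log2 ratio of 0.83, and ATP6V0A2, a subunit of the proton pump of lysosomes, with -0.89.

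Granule and effector genes of neutrophils and monocytes, a list of 20, had their highest promoter tags in p42 cells more often than coding genes as a whole. The highest summit of each gene's promoter was compared between lines, and a list without a peak was set to 4 tags, the fewest of any peak. In 11 of the 20 genes p42 cells had the highest value in both treatments, against 18.0% of the 16964 coding genes with a region. For 7 of the 20, EV cells had the lowest value in both treatments, against 9.96% of those genes. The median log2 ratio of p42 over p30 was 0.25 in DMSO and 0.34 in tunicamycin, against -0.01 and -0.02 over all genes. The number was 13 without scaling (27.9% of all genes) and 10 with scaling by depth (9.37%). Markers of other cell types moved too. All 4 neuronal markers (SYT1, SNAP25, GRIN1 and RBFOX3), 2 of 3 B cell markers with a region, 2 of 3 hepatocyte markers (ALB and TTR) and 1 of 2 epithelial markers (CDH1) were also highest with p42. None of the 4 T cell, 3 megakaryocyte or 3 fibroblast and muscle markers was, and the 4 erythroid markers had no peak. SYT1, for example, had 11 and 14 tags in EV, 13 and 9 in p30 and 20 and 18 in p42 cells. Of the 14 progenitor and myeloid markers, p42 cells were highest in 2 (14.3%) and lowest in 5, in both treatments. Over coding genes with a region, 22.2% were lowest in p42 cells. The part of other cell types in the granule result was not tested.

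MPO, the myeloperoxidase of azurophil granules, had 34 and 28 tags in EV cells, 35 and 28 in p30 cells and 46 and 38 in p42 cells, in DMSO and tunicamycin. CTSG, the granule protease cathepsin G, had 13 and 15, then 20 and 22, then 35 and 29. FCN1, the ficolin of monocytes, had 5 and no peak in EV cells, 9 and 5 in p30 cells and 29 and 13 in p42 cells. For these genes the p42 values lay above all others. S100A8, a subunit of calprotectin, had 11 to 13 tags in EV and p30 cells and 22 and 23 in p42 cells. S100A12 had 5 to 6 tags or no peak outside p42 cells, where it had 17 and 18. MMP9, a gelatinase, had 12 to 16 tags or no peak outside p42 cells, where it had 31 and 19. PRTN3, AZU1, MMP8, S100A9 and LYZ completed the 11. The highest summit of ELANE, neutrophil elastase, did not differ in this way, with 4 to 8 tags in all lists. ELANE also had a promoter region held by both p42 lists only. LTF, lactoferrin of specific granules, was lowest with p42 in DMSO (30, against 36 in EV and 53 in p30 cells). By scaled tags, PADI4 was the only gene of the 20 that was lowest with p42 in both treatments. A peak for NCF1, an oxidase subunit with near-identical pseudogenes, was called only with p42 in DMSO, with 7 tags.

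Receptors and transcription factors of the myeloid lineage were open in nearly all lists. Of 20 myeloid surface receptors 18 were open in all 6, against 76.6% of all coding genes, and p42 cells were highest in 5 (25.0%), against 18.0% of coding genes with a region. CSF3R, the receptor of granulocyte colony-stimulating factor, had 39 and 35 tags with p42 and 18 to 24 in the other lists, TREM1, which amplifies inflammatory signals, 20 and 23 against 8 to 14, and FPR1, the formyl peptide receptor, 22 and 18 against 12 to 15. In each the p42 values of the highest summit stood above the rest. CSF3R also had another promoter region that was missing only from both p42 lists. Of 16 C/EBP and myeloid transcription factors 15 were open in all 6 lists and GATA1, the erythroid factor, in none, and p42 cells were highest in 4 (26.7% of those with a region), CEBPB, CEBPE, GFI1B and KLF4. They were also highest in 6 of 18 NF-κB and inflammatory regulators (33.3%), 5 of 17 stem cell and HOX genes (29.4%), 4 of 20 E2F and cell cycle genes, 2 of 14 AP-1 genes (14.3%) and 2 of 20 cytokines and chemokines (10.0%). In the same order of lists, p42 cells were lowest in both treatments in 1, 7, 6, 2 and 5 genes. Among the surface receptors and the transcription factors they were lowest in 2 and 3. Over coding genes with a region, 22.2% were lowest in p42 cells. CEBPB had 45 and 41 tags with p42 and 26 to 35 in the other lists. All 14 AP-1 genes, all 18 NF-κB and inflammatory regulators and all 20 E2F and cell cycle genes were open in all 6 lists, as were 18 of 21 cytokines and chemokines and 17 of 18 stem cell and HOX genes. CXCL10 and HOXA5 had no peak in any list.

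The 19 interferon-stimulated genes and 18 unfolded protein response genes were open in all 6 lists too. Scaled tags of p42 cells were lowest in both treatments in 9 and 10 of these, against 22.2% of coding genes with a region. Without scaling the numbers were 1 and 0, against 3.87%, and with scaling by depth 12 and 10, against 32.9%. HSPA5, the chaperone BiP, had 46 and 50 tags in EV, 54 and 51 in p30 and 51 and 46 in p42 cells, so that p42 values overlapped those of EV cells before scaling.

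The comparison of tunicamycin with DMSO asks which promoters differ under stress in the endoplasmic reticulum. In EV cells 3591 coding promoter regions had a peak in tunicamycin only (8.95%, against 11.7% of all regions) and 2975 in DMSO only (7.42% against 10.1%). In p30 cells the numbers were 2627 (6.55% against 8.56%) and 4263 (10.6% against 15.2%), and in p42 cells 2529 (6.31% against 9.07%) and 5338 (13.3% against 21.6%). A peak in all 3 tunicamycin lists and no DMSO list was found for 97 regions (0.242%, 0.198 to 0.295, against 0.202% of all regions). The reverse held for 171 regions (0.426% against 0.505%). These patterns took in the whole promoter of 4 genes (DMP1, DEPP1, IGSF22 and FCER2, of which FCER2 is named after its values were seen) and of 31 genes.

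NFE2L1, a transcription factor anchored in the endoplasmic reticulum that induces proteasome genes, led the tunicamycin regions with 9 tags in EV, 12 in p30 and 16 in p42 cells, at -25 bp from a start and over the ATF4 letters shown above. SNX22, MEX3B and PCDH7 followed with 17 to 25 tags in the tunicamycin lists and no peak in DMSO. ATIC, an enzyme of purine synthesis, had 14, 18 and 13. All 8 leading regions were at genes that had another region in all 6 lists. The regions seen in DMSO only were led by SSB, the La protein that binds RNA polymerase III transcripts (12, 14 and 14 tags), KDM6B, an H3K27 demethylase (16, 18 and 19), NSRP1 (9, 10 and 11) and SOCS7 (13, 15 and 17). The 8 leading DMSO regions were also at genes that had another region in all 6 lists. The C/EBP letters were found in 13.4% (8.00 to 21.6) of the tunicamycin regions and 5.26% (2.79 to 9.70) of the DMSO regions, against 7.67% of all coding promoter regions. The ATF4 letters were found in 3 of the 97 regions (3.09%, 1.06 to 8.70), against 0.663%. Outside coding promoters they were found in 7.59% of the regions of all 3 tunicamycin lists only, against 1.25% of all merged regions.

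Among promoter regions open in all 6 lists, scaled tags at least 2-fold higher with tunicamycin in all 3 lines were found in 2 of 22035 (0.00908%), against 0.0105% of all regions in 6 lists. A fall of that size was found in 0, against 0% of all regions. The promoter of WARS1, the cytosolic tryptophanyl-tRNA synthetase, shared with WDR25, went from 16 to 37 tags in EV, from 13 to 39 in p30 and from 16 to 36 in p42 cells. RMND5A, a ubiquitin ligase subunit, went from 9 to 20, from 5 to 19 and from 8 to 20. The tunicamycin values of both genes lay above all DMSO values. Next came SEC24D, a cargo adaptor of COPII vesicles (18 to 31, 21 to 35 and 17 to 35), RFX6 (7 to 13, 7 to 10 and 7 to 10) and SHMT2, the mitochondrial enzyme of serine and glycine metabolism (21 to 33, 21 to 29 and 23 to 32). At the other end stood HGS, an endosomal sorting protein (12 to 8, 16 to 9 and 18 to 5), CDC45, a replication helicase cofactor (14 to 9, 15 to 9 and 18 to 8), PCNX2, AUTS2 and NLRP12, an inflammasome-family receptor of myeloid cells (24 to 17, 26 to 13 and 33 to 16). The summits of SEC24D, CDC45 and AUTS2 lay 1020, -978 and 899 bp from the nearest coding start, and those of the other genes named here within 100 bp.

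All 18 unfolded protein response genes and 16 of 18 integrated stress response genes were open in all 6 lists, against 76.6% of all coding genes. STC2 had a promoter region in p30 cells in DMSO and in both p42 lists only, with 6 to 7 tags, and NUPR1 had none. Scaled tunicamycin tags were above DMSO in all 3 lines in 4 of the 18 (HYOU1, SYVN1, ERN1 and EIF2AK3) and in 3 of the 17 with a region (TRIB3, VLDLR and PHGDH), against 14.3% of coding genes with a region. Scaled tags below DMSO in all 3 lines were found in 0 and 1 of these, against 13.0%. Before scaling, each of the 4 unfolded protein response genes had fewer tags in tunicamycin in at least 1 line, such as HYOU1, an endoplasmic reticulum chaperone, with 47 and 51 in EV, 49 and 48 in p30 and 48 and 47 in p42 cells. TRIB3, a pseudokinase induced by ATF4, had 21 and 34 tags in EV, 26 and 35 in p30 and 35 and 35 in p42 cells, equal in both p42 lists before scaling. CHAC1, a glutathione-degrading enzyme, had 32 and 46, 35 and 44, and 37 and 30, higher with tunicamycin in EV and p30 cells and lower in p42 cells. PHGDH, which starts serine synthesis, had 30 and 37, 34 and 45, and 36 and 37.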

How the data were processed

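Peak lists of 6 conditions, each from 2 pooled ATAC-seq libraries, were used as deposited. Per the submitters' processing notes and the methods, the authors' steps were trimming (Trim Galore 0.6.6), alignment to hg38 (Bowtie2 2.4.4), removal of duplicates (Picard) and peak calling (MACS2). The deposited columns hold fold enrichment over background at the summit (a ratio), the −log10 of the p-value and of the q-value per peak, and the distance of the summit from the start of the peak. The lowest −log10 q in the lists was 1.30. A Tn5 shift and a mitochondrial filter are not given in the sources used here.

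Peaks were merged at 1 bp overlap and matched to starts of 170058 coding transcripts in GENCODE release 44. Summit tags were solved as whole numbers from the fold and the Poisson p (100% whole, tolerance 0.0005), and depth was estimated with a genome size of 2700000000 bp. The scripts were checked on simulated data. Python 3.11.15 with numpy 2.4.6, pandas 2.3.3, scipy 1.17.1, pysam 0.24.0 and matplotlib 3.10.9, and samtools 1.23.1, were used. Wilson intervals are at 95% and cover counting error only.

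The pooled lists allow no test. Members and gene lists were chosen with earlier results of these data known. Genes were named as the 8 regions of each pattern with the highest smallest −log10 q, the same for whole promoters, and the 8 (p42) or 5 (p30, tunicamycin) regions at each end of the scaled tags, with members of the gene lists. Alternatives changed the q threshold, list size, depth, overlap, window, start annotation, chromosomes, scaling and fold. Summit sequences that overlap a UTR are shown as at most 30 bases around a match. Some genes and sequences that the naming rule would give are not reported here.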

Additional observations from a re-analysis of the deposited data

Results flagged for a closer look

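The net change of coding promoter regions with tunicamycin, gained minus lost as percent of the regions in DMSO, differed in sign between the lines. It was 2.24% in EV cells, -5.64% in p30 cells and -8.85% in p42 cells. The difference was not tested, since each value comes from 1 pooled list per treatment. Estimated depth went from 22250000 to 25130000 tags with tunicamycin in EV cells, from 26530000 to 23080000 in p30 cells and from 29980000 to 25440000 in p42 cells, so depth moved in the same direction as the regions in each line. With lists of equal size the values were -1.47%, -1.11% and -3.71%, all of the same sign. With the threshold scaled to the shallowest list they were 1.91%, -4.61% and -7.51%. With the tags also rounded down, an alternative chosen after seeing the data, they were 1.05%, -4.79% and -4.80%. The part of depth in the difference was not tested.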

How the results depend on the processing

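Under the alternatives 83 counts stayed within the limits of the reported ones and 39 moved. The net tunicamycin change of coding promoter regions in EV cells, 2.24%, changed sign to -1.47% with equal list sizes. At a −log10 q of at least 10, genes without a peak numbered 5220, and coding promoter regions numbered 481 in both p42 lists only, 58 in p30, 47 in EV, 115, 74 and 76 missing from p42, p30 and EV, 34 in tunicamycin only and 40 in DMSO only. With equal list sizes the numbers that moved were 623 in both p42 lists only, 420 missing from p42 and 102 missing from p30. Where peaks had to cover 50% of a region, 3376 genes were open in 1 to 5 lists, and 301 regions were in p30 only, 341 missing from p42 and 331 in DMSO only. A window of 500 bp gave 612 (p42 only), 122 (p30 only), 124, 103 and 108 (missing from p42, p30 and EV), 64 (tunicamycin only) and 112 (DMSO only). A window of 2000 bp gave 1694 (p42 only), 329 (missing from p42) and 274 (missing from EV). Canonical starts alone gave 318 (p42 only), 88 (p30 only), 71 (EV only), 82, 74 and 76 (missing from p42, p30 and EV), 56 (tunicamycin only) and 99 (DMSO only). A fold of 1.5 gave 114 regions higher and 114 lower with p42, and scaling by depth gave 15 lower. Genes highest in p42 cells numbered 4726 without scaling and 1589 with scaling by depth, alternatives chosen after seeing the data, as was rounding scaled tags down. The cause of these differences was not tested, although a stricter threshold, a narrower window and fewer starts leave fewer regions by construction. No paired analysis was possible because each list pools its replicates and no test was made, and for the same reason no replicate could be left out. Depth limits the weak regions, and a promoter without a peak may be open below the threshold.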
